A study of Mus musculus with 8 samples.

Results

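The 10 genes Slc7a11, Slc7a5, Slc3a2, Slc7a1, Slc7a3, Slc1a4, Slc1a5, Slc6a9, Slc38a1 and Slc38a2 encode amino acid transporters of the plasma membrane that cells are known to induce under stress. They were picked by symbol from a table of 24930 genes, and all 10 were present. The libraries are poly-A RNA sequencing of mouse Pdgfra-lo intestinal stromal cells, labelled as mesenchyme, which were sorted as GFP-positive, DAPI-negative cells. There were 3 libraries of these cells grown alone in Matrigel, 3 of cells grown with wild-type enteroids and 2 of cells grown with enteroids carrying a β-catenin gain-of-function allele (BcatGOF). Enteroids are cultured epithelial organoids, here from the duodenum, and β-catenin is the transcriptional effector of WNT signalling. Cocultures held 50000 stromal cells and ran for 7 days in medium without EGF, R-spondin1 and Noggin. The labels give no strain, age, culture time or seeding number for the cells grown alone, do not say what drives GFP or which β-catenin allele was used, and assign no library to the TGF-β receptor inhibitor named in the study's design. They do not say whether replicates came from separate mice, so p-values measure the spread between these libraries.

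Most of these transporters are known targets of ATF4, a transcription factor that cells translate when amino acids run short or the endoplasmic reticulum is stressed. ATF4 binds composite elements in its targets together with partners of the C/EBP family. The cystine importer Slc7a11 is also a target of NRF2, which responds to oxidative stress, and the cystine it brings in feeds glutathione synthesis. Slc3a2 is the heavy chain that carries the light chains Slc7a5, an importer of leucine and other large neutral amino acids, and Slc7a11 to the cell surface. The others import cationic amino acids (Slc7a1 and Slc7a3), small neutral amino acids and glutamine (Slc1a4, Slc1a5, Slc38a1 and Slc38a2) and glycine (Slc6a9).

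Promoter windows from RefSeq (GRCm38.p6), from 250 bases before to 50 after a transcription start, were found for 6 of the 10 genes, in 9 windows. Each was searched for TGATGNAA, the core of the C/EBP-ATF element, and for TGACNNNGC, the core of the antioxidant response element bound by NRF2, on both strands (TTNCATCA and GCNNNGTCA on the other). The first was found in 2 of the 9 windows and in 3.97% of all 32851 promoter windows, and the second in 4 of 9 and 12.4%. The windows of Slc7a11 and Slc1a4 are shown because they hold the first motif and because these genes differed in opposite directions in the BcatGOF cocultures. Capitals mark TGATGNAA on either strand, and no match overlapped another. Slc7a11 holds it at bases 185 to 192 and, on the other strand, at 204 to 211, and Slc1a4 on the other strand at 247 to 254. The window of Slc7a11 is chr3:50443564-50443863 on the minus strand and that of Slc1a4 is chr11:20332664-20332963, also minus. The second motif was in windows of Slc6a9 (2 of its 3), Slc7a1 (1 of its 2) and Slc38a2 (1), and neither motif was in that of Slc3a2. A match is a description of letters, and binding was not measured.
Slc7a11: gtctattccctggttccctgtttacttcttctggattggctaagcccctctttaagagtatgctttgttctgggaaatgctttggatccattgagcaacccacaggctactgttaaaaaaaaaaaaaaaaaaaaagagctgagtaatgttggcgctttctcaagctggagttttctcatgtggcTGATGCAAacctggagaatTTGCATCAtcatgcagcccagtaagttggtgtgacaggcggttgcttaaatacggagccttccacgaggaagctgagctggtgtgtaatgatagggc
Slc1a4: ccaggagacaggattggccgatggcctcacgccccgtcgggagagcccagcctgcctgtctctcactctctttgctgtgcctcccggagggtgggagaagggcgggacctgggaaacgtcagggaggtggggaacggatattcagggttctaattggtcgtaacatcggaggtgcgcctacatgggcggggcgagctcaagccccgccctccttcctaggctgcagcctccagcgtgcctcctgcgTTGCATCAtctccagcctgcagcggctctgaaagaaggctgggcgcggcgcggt

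Values are FPKM, fragments scaled by transcript length and library size, so levels can be compared between genes. How many reads each rests on is unknown, and the relative depth that low values allow to be estimated was 0.796 to 1, with the first library of cells grown alone set to 1. The estimate was confined to a fixed band around 1, so a larger difference in depth could not have shown. All 10 stromal markers checked, among them Pdgfra, Vim and Col1a1, were at 1 FPKM or more in every library. Summed over 18 epithelial markers the level was 5.93 to 8.29 FPKM in cells grown alone. In wild-type replicates 1, 2 and 3 it was 18.6, 9.14 and 140 FPKM, and in BcatGOF replicates 1 and 2 it was 32.8 and 130.2 FPKM. Epcam was at 0 in cells grown alone replicate 2 but at 5.78 and 5.63 FPKM in wild-type replicate 3 and BcatGOF replicate 2. Olfm4 was at 0 in 7 of the 8 libraries. Endothelial markers summed to at most 1.21 FPKM, and Tie1 was at 0 in all 8 libraries. Immune markers summed to 24.9 FPKM (wild-type replicate 1) to 133 FPKM (BcatGOF replicate 2). Lyz2 was at 14.0 to 82.2 FPKM over the libraries, Cd14 at 5.88 to 70.0 FPKM and Cd68 at 1.72 to 6.76 FPKM. The other immune markers, Ptprc among them (at most 0.0508 FPKM), stayed under 1 FPKM. Mesothelial markers summed to 2.40 FPKM (cells grown alone replicate 1) to 50.4 FPKM (wild-type replicate 3). BcatGOF replicate 2 stood apart from the other 7 libraries, at 63.6 on a first principal component that held 40.3% of the variance, with the others between -38.9 and 25.4. For many transporter results that rest on it, the value without it is given too. Medians and log2 fold changes of the markers and other gene lists are given only with it.

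Slc38a2 was the most abundant of the 10 transcripts in 7 of the 8 libraries, and in wild-type replicate 2 Slc3a2 was higher. In cells grown alone it was at 135, 131 and 199 FPKM, with wild-type enteroids at 112, 101 and 120 FPKM, and with BcatGOF enteroids at 114 and 109.6 FPKM. Every coculture library was below every library of cells grown alone. It held 29.0% to 45.2% of the summed FPKM of the 10 genes, a sum that made up 0.0417% to 0.112% of a library's FPKM. In cells grown alone Slc3a2 was next, at 91.4 ± 21.3 FPKM (SD, n = 3), below Slc38a2 in each of these libraries. Slc1a5 (44.4 ± 15.04 FPKM) and Slc7a5 (43.8 ± 20.7 FPKM) followed and did not differ beyond their spread. Slc6a9 was at 21.5 ± 7.51 FPKM, Slc1a4 at 11.8 ± 3.08, Slc38a1 at 10.4 ± 2.31 and Slc7a1 at 6.86 ± 2.04 FPKM, and neighbours among the last 3 overlapped. Slc7a11 (0.796 ± 0.272 FPKM) and Slc7a3 (0.600 ± 0.220 FPKM) were the least abundant and overlapped.

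**Figure D1:**
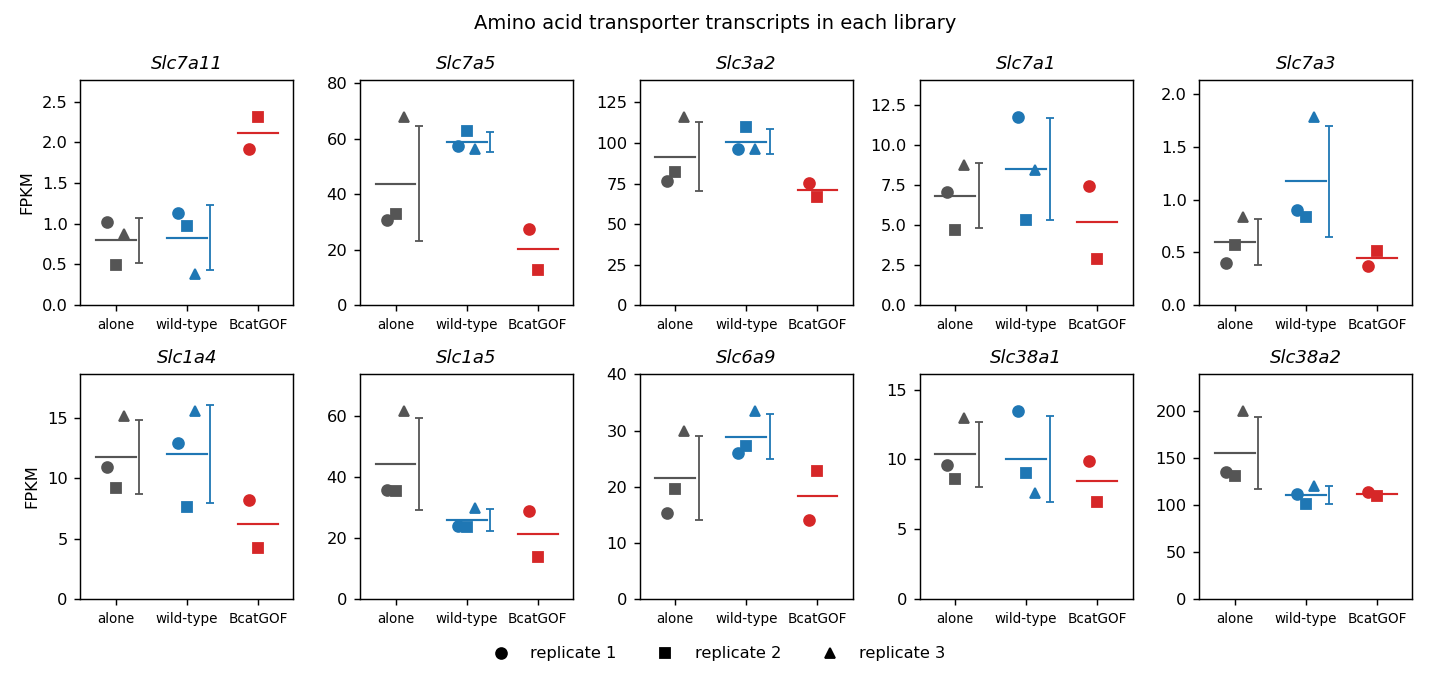
FPKM (y axis, linear from 0, own scale per gene) of the 10 transporter genes in stromal cells grown alone, with wild-type and with BcatGOF enteroids (x axis). Symbols are libraries by replicate number, lines are group means and bars are SD for the groups of 3; Slc7a11 is highest in the 2 BcatGOF libraries, at 1.92 and 2.31 FPKM, and Slc7a5 lowest in them, at 27.5 and 12.8 FPKM.

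The comparison of BcatGOF with wild-type cocultures asks how the epithelial genotype bears on the stromal cells. The leucine importer Slc7a5 was at 57.2, 62.8 and 56.1 FPKM with wild-type enteroids and at 27.5 and 12.8 FPKM with BcatGOF enteroids. The groups did not overlap, and the wild-type mean was 2.92 times the BcatGOF mean. The log2 fold change of FPKM plus 1 was -1.59 (SE 0.40, unadjusted p = 0.00418, adjusted p = 1 over 12927 genes, limma). It was -1.07 without BcatGOF replicate 2 and -2.12 without BcatGOF replicate 1, so its direction did not rest on either library.

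Its heavy chain Slc3a2 was at 96.0, 109.5 and 96.5 FPKM with wild-type enteroids and at 75.4 and 66.5 FPKM with BcatGOF enteroids. Again no BcatGOF library reached a wild-type library, but the difference was smaller than for the light chain (log2 fold change -0.50, SE 0.22, unadjusted p = 0.0522, limma). The 2 chains work as a pair, so their ratio per library is described here without a test. Slc7a5 stood to Slc3a2 at 0.403, 0.400 and 0.585 in cells grown alone and at 0.596, 0.574 and 0.581 with wild-type enteroids. In the BcatGOF cocultures it stood at 0.364 and 0.192, below all 6 other libraries.

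Slc7a11, the cystine importer, was higher with BcatGOF enteroids. It was at 1.13, 0.972 and 0.378 FPKM with wild-type enteroids and at 1.92 and 2.31 FPKM with BcatGOF enteroids, 2.55 times the wild-type mean, and the groups did not overlap. On the log2 scale it was higher by 0.79 (SE 0.26, unadjusted p = 0.0174, adjusted p = 1, limma). With a pseudocount of 0.1 in place of 1 the value was 1.36, because the added 1 FPKM compresses a gene at this level. It was 0.70 without BcatGOF replicate 2 and 0.51 without that library and wild-type replicate 3. Its ratio to Slc3a2 was 0.00391 to 0.0133 in the 6 libraries without BcatGOF enteroids and 0.0255 and 0.0347 with them. In both BcatGOF libraries, then, one light chain was low and the other high relative to their shared heavy chain.

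**Figure D2:**
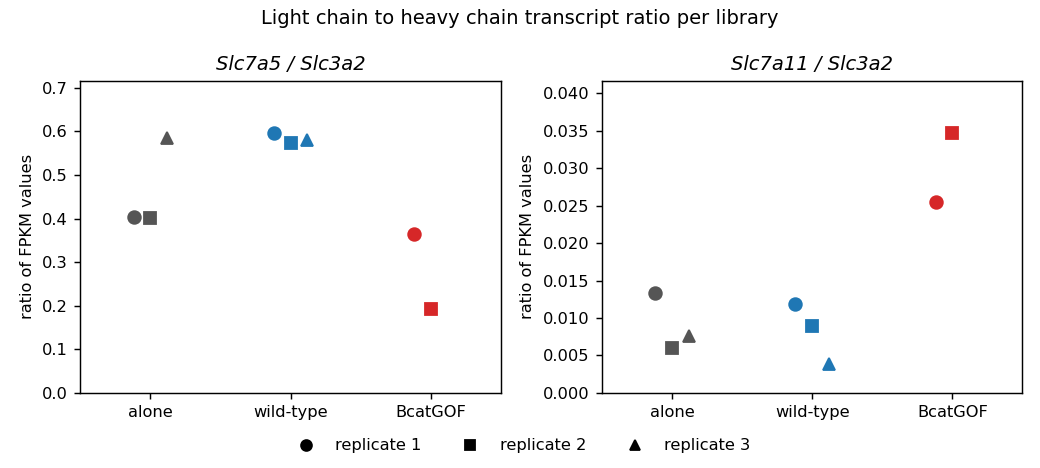
Ratio of FPKM values (y axes, linear from 0) of the light chains Slc7a5 (left) and Slc7a11 (right) to the heavy chain Slc3a2 in each library, by group (x axis) and replicate number (symbols). The 2 BcatGOF libraries have the lowest Slc7a5 ratios, 0.364 and 0.192, and the highest Slc7a11 ratios, 0.0255 and 0.0347.

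Of the neutral amino acid and glycine importers, Slc6a9 was at 26.0, 27.2 and 33.5 FPKM with wild-type enteroids and at 14.0 and 22.8 FPKM with BcatGOF enteroids, without overlap (log2 fold change -0.65, SE 0.31, unadjusted p = 0.0665, limma). It was -0.99 without BcatGOF replicate 2 and -0.32 without BcatGOF replicate 1. Slc1a4, an importer of alanine, serine and cysteine, was at 12.9, 7.63 and 15.6 against 8.21 and 4.20 FPKM. These groups overlapped, since wild-type replicate 2 was below BcatGOF replicate 1 (log2 fold change -0.86, SE 0.36, unadjusted p = 0.0431, limma, and -0.45 without BcatGOF replicate 2). Slc1a5 had a log2 fold change of -0.35 (SE 0.35), which turned to 0.16 without BcatGOF replicate 2. The system A importers Slc38a1 and Slc38a2 stood at -0.21 (SE 0.28) and 0.018 (SE 0.23).

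Of the cationic importers, Slc7a1 was at 11.7, 5.34 and 8.46 FPKM with wild-type enteroids and at 7.44 and 2.90 FPKM with BcatGOF enteroids (log2 fold change -0.67, SE 0.41, and -0.12 without BcatGOF replicate 2). Slc7a3 was under 1 FPKM in all but 1 library and so was not tested. It was at 0.903, 0.836 and 1.78 FPKM with wild-type enteroids, at 0.369 and 0.516 FPKM with BcatGOF enteroids, and at 0.398, 0.568 and 0.834 FPKM in cells grown alone. The wild-type cocultures lay above both other groups, with the nearest libraries at 0.836 FPKM in wild-type coculture and 0.834 FPKM alone.

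No transporter passed an adjusted p of 0.05 in limma between the 2 kinds of coculture, and neither did any of the 12927 genes (0%). At an unadjusted p under 0.05, 1 of the 9 tested members was higher (1.11% of all genes) and 2 were lower (1.77%). The groups did not overlap for 1 member higher (6.36% of all genes) and 3 lower (7.64%). Both comparisons of groups below share libraries with this one. The median log2 fold change of the 9 members was -0.50, beside 0.0077 over all genes tested, and it was -0.12 without BcatGOF replicate 2. Over the 10 stromal markers the median was -0.69, with 8 lower, and over the 4 smooth muscle markers (Myh11, Actg2, Des and Cnn1) it was -1.18, with 4 lower. The smooth muscle markers summed to 33.2 FPKM in BcatGOF replicate 2, 277 FPKM in BcatGOF replicate 1 and 75.2 to 548 FPKM in the other 6 libraries. Their part and that of the stromal markers in the members' values was not tested. With the replicate number as a block 1 member was higher at an unadjusted p under 0.05 (2.18% of all genes) and 4 were lower (2.85%), the latter being Slc7a5, Slc1a4, Slc7a1 and Slc6a9.

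The comparison of BcatGOF cocultures with cells grown alone asks what enteroids with active β-catenin bring to the stromal cells. Slc1a5, the main importer of glutamine in many cell types, was at 35.8, 35.6 and 61.8 FPKM in cells grown alone and at 28.8 and 13.8 FPKM with BcatGOF enteroids. The mean of cells grown alone was 2.08 times the BcatGOF mean, and both BcatGOF libraries lay below all 3 others (log2 fold change -1.06, SE 0.35, unadjusted p = 0.0160, adjusted p = 0.894, limma). Slc7a5 was at 30.9, 32.8 and 67.7 FPKM in cells grown alone, above both BcatGOF values but close to that of replicate 1 (log2 fold change -1.08, SE 0.40, unadjusted p = 0.0267, adjusted p = 0.894, limma). Slc1a4 was at 10.96, 9.20 and 15.2 FPKM in cells grown alone, also above both BcatGOF libraries (log2 fold change -0.86, SE 0.36, unadjusted p = 0.0438, adjusted p = 0.894, limma). Without BcatGOF replicate 2 these 3 log2 fold changes were -0.56 for Slc1a5, -0.56 for Slc7a5 and -0.45 for Slc1a4. BcatGOF replicate 2 thus held much of their size.

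The authors' deposited table for this comparison holds 2184 genes, 8.76% of those in the FPKM table, each with an adjusted p of at most 0.0150. It lists 3 of the 10 transporters, all lower with BcatGOF enteroids. Slc7a11, which was higher in limma (unadjusted p = 0.0162), is not listed. In the authors' deposited table Slc1a5 has a log2 fold change of -1.66 (SE 0.30) with an adjusted p of 1.13e-06 and a mean normalized count of 1542. In the authors' deposited table Slc1a4 stands at -1.39 (SE 0.35, adjusted p = 9.60e-04, mean normalized count 755) and Slc7a5 at -1.27 (SE 0.39, adjusted p = 0.00863, mean normalized count 2869). These are the members with the smallest unadjusted p among those lower in limma, where none passed over all genes. The authors' log2 fold changes were larger in size than those of limma (-1.06 for Slc1a5, -0.86 for Slc1a4 and -1.08 for Slc7a5), and the reason was not tested. The labels tie the authors' comparison to these groups but do not list its libraries, so it is not counted as further samples.

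Slc7a11 was at 1.02, 0.492 and 0.877 FPKM in cells grown alone, below both BcatGOF libraries, whose mean was 2.66 times as high (log2 fold change 0.80, SE 0.26, unadjusted p = 0.0162, adjusted p = 0.894, limma, and 0.71 without BcatGOF replicate 2). With a pseudocount of 0.1 it was 1.35. Slc38a2 and Slc3a2 were lower without overlap, by -0.44 (SE 0.23) and -0.34 (SE 0.22) on the log2 scale. For Slc3a2 the nearest libraries, at 76.6 FPKM alone and 75.4 FPKM with BcatGOF enteroids, lay close together. Without replicate 3 of the cells grown alone, the highest library for both genes, the values were -0.25 and -0.16. Slc7a1 (-0.42, SE 0.41), Slc38a1 (-0.27, SE 0.28) and Slc6a9 (-0.20, SE 0.31) overlapped between the groups, and Slc7a1 turned to 0.14 without BcatGOF replicate 2.

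No transporter passed an adjusted p of 0.05 in limma against cells grown alone, where 0.00774% of all genes did. At an unadjusted p under 0.05, 1 member was higher (2.88% of all genes) and 3 were lower (2.62%). The groups did not overlap for 1 member higher (8.49%) and 5 lower (7.82%). The median over the 9 tested members was -0.42, beside 0.014 over all genes tested, and -0.24 without replicate 3 of the cells grown alone. Over the 10 stromal markers it was -0.44, with 8 lower, and over the 4 smooth muscle markers -1.45, with 4 lower, and their part in the members' values was not tested. With the replicate block 1 member was higher at an unadjusted p under 0.05 (4.17% of all genes) and 2 were lower (3.67%). In bulk RNA, fewer cells of a type and less RNA per cell cannot be told apart. The epithelial marker sums were highest in wild-type replicate 3 and BcatGOF replicate 2, at 140 and 130.2 FPKM. In these libraries Slc7a5 was at 56.1 and 12.8 FPKM and Slc7a11 at 0.378 and 2.31 FPKM. With 1 such library per group, the part of epithelial RNA in the members' values cannot be told from them, and it was not tested.

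**Figure D3:**
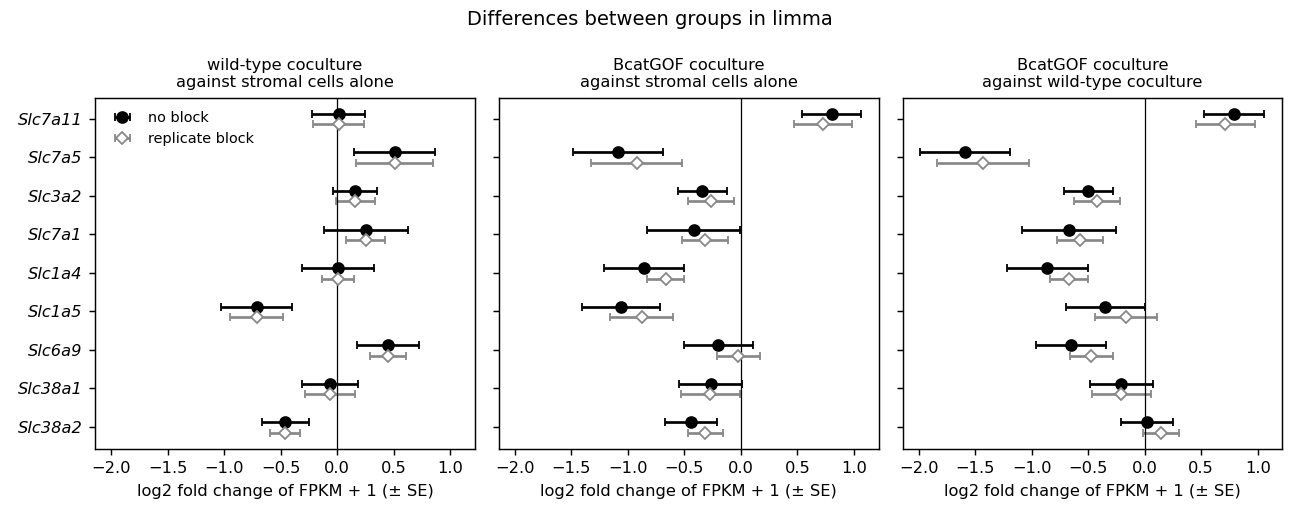
Log2 fold change of FPKM + 1 with its SE (x axes) for the 9 tested members (y axis) in the 3 comparisons, from limma without (filled) and with (open) the replicate block. In both comparisons of BcatGOF cocultures Slc7a11 lies to the right of 0, at 0.80 and 0.79, and Slc7a5 to the left, at -1.08 and -1.59.

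The comparison of wild-type cocultures with cells grown alone asks what healthy enteroids bring. Of the 9 tested members, the 2 whose groups did not overlap were lower in coculture, while the untested Slc7a3 was higher. Slc1a5 was at 24.0, 23.7 and 30.1 FPKM in coculture against 35.8, 35.6 and 61.8 FPKM alone, a mean 1.71 times as high alone (log2 fold change -0.71, SE 0.31, unadjusted p = 0.0512, adjusted p = 1, limma). Slc38a2, given above, was lower by -0.46 (SE 0.21, unadjusted p = 0.0569, adjusted p = 1, limma). Without replicate 3 of the cells grown alone, the highest library for both genes, the log2 fold changes were -0.46 for Slc1a5 and -0.27 for Slc38a2. Both genes were thus lower than in cells grown alone in either kind of coculture, against the same 3 control libraries.

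The largest values in the other direction were those of Slc7a5, at 0.51 (SE 0.36), and Slc6a9, at 0.45 (SE 0.27), on the log2 scale. For both, the wild-type values fell within a narrow range, at 56.1 to 62.8 FPKM for Slc7a5 and 26.0 to 33.5 FPKM for Slc6a9, while replicate 3 of the cells grown alone, at 67.7 and 29.9 FPKM, stood above the other 2 controls. With all libraries the unadjusted p in limma was 0.193 for Slc7a5 and 0.140 for Slc6a9. Without replicate 3 of the cells grown alone the log2 fold changes were 0.86 and 0.70, the highest reached by leaving out 1 library at a time. The lowest were 0.31 for Slc7a5 and 0.24 for Slc6a9. Slc7a1 (0.25, SE 0.37), Slc3a2 (0.16, SE 0.20), Slc7a11 (0.012, SE 0.24), Slc1a4 (0.0039, SE 0.32) and Slc38a1 (-0.063, SE 0.25) overlapped between the groups.

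No member passed an adjusted p of 0.05 in limma, where 0.00774% of all genes did, and none reached an unadjusted p under 0.05 (2.29% of all genes higher, 2.61% lower), and with the replicate block none passed the adjusted threshold either, beside 0.0155% of all genes. The groups did not overlap for 0 tested members higher (6.35%) and 2 lower (5.61%). The members' median was 0.012, beside 0.019 over all genes tested. With the replicate block 3 members were under an unadjusted p of 0.05, Slc6a9 higher (5.04% of all genes), and Slc1a5 and Slc38a2 lower (5.28%).

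Libraries of the same replicate number deviated from their group means together, so ratios within a number are given too. The matching shares over all tested genes were not counted, so the counts below describe the members only. The ratio of BcatGOF to wild-type coculture was below 1 in both numbers for 6 of the 9 tested members and above 1 in both for Slc7a11 and Slc38a2. For Slc7a5 it was 0.480 in replicate 1 and 0.203 in replicate 2, and for Slc7a11 1.69 and 2.37. The ratio of BcatGOF coculture to cells grown alone was below 1 in both for 5 members. It was smaller in replicate 2 than in replicate 1 for Slc7a5 (0.389 and 0.890), Slc1a5 (0.388 and 0.805) and Slc1a4 (0.457 and 0.749). The ratio of wild-type coculture to cells grown alone was below 1 in all 3 numbers for Slc1a5 (0.670, 0.665 and 0.487) and Slc38a2 (0.825, 0.770 and 0.601), and above 1 in all 3 for Slc6a9 (1.70, 1.39 and 1.12). For Slc7a5 it was 1.85 and 1.92 in replicates 1 and 2 but 0.829 in replicate 3.

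**Figure D4:**
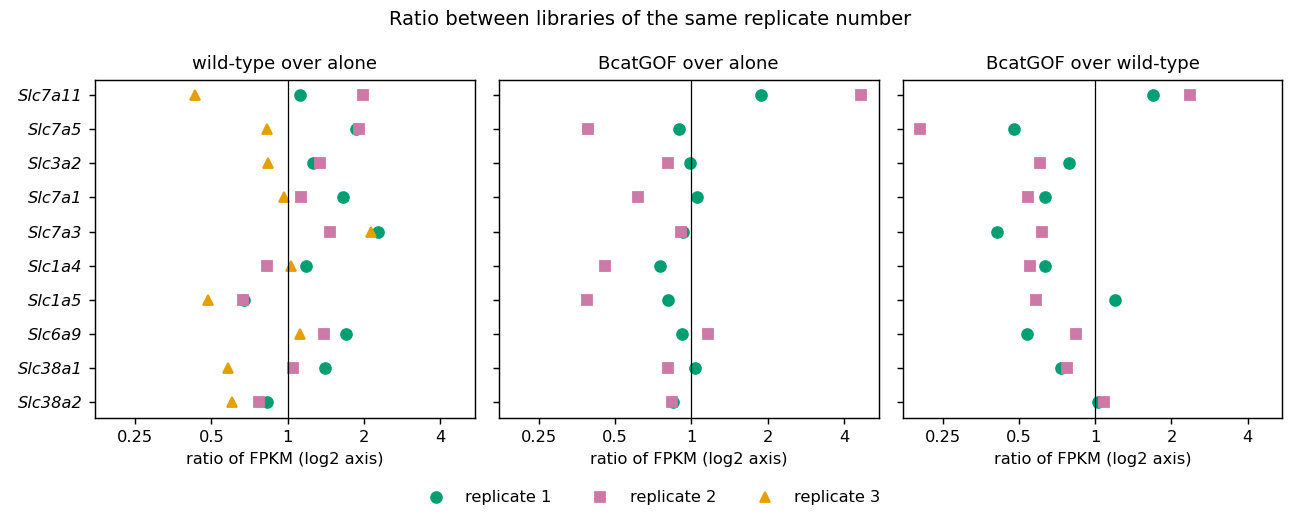
Ratio of FPKM between libraries of the same replicate number (x axes, log2 scale) for the 10 genes (y axis), with colours and symbols by replicate number. In the right panel Slc7a5 lies at 0.480 and 0.203 and Slc7a11 at 1.69 and 2.37, on opposite sides of 1.

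The members did not share a single pattern over the 8 libraries. BcatGOF replicate 2 was the lowest library for 6 of the 9 tested members and the highest for Slc7a11, and replicate 3 of the cells grown alone was the highest for 4. The matching shares over all tested genes were not counted. BcatGOF replicate 2 also stood apart over all genes, so these counts are not read as particular to the members. As a measure of likeness, the absolute differences in library rank between a gene and the members' mean z-scored profile were summed over the 8 libraries, with 0 for the same order. Slc7a1 (6), Slc7a5 (8) and Slc3a2 (8) were nearest to the mean profile to which they contribute, and Slc7a11 (24) was farthest, beside a median of 22 over the other 12918 tested genes. Outside the set 11 genes were at the smallest sum, 2, and the 5 most abundant of these were Clip3, Tbc1d20, Tcf3, Acap3 and Phc1. Clip3, the most abundant of them, ranged from 39.4 to 67.9 FPKM.

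Genes of related pathways were counted from lists that hold other pathway members as well as known targets. Their counts stand beside the shares of all tested genes whose groups did not overlap. Among 13 genes of serine, asparagine and one-carbon synthesis, 9 were lower without overlap in BcatGOF than in wild-type coculture (7.64% of all genes) and 0 higher (6.36%), and the median log2 fold change was -0.85. Mthfd2, a mitochondrial folate enzyme, was at 44.4, 41.6 and 42.6 FPKM with wild-type and 18.5 and 19.5 FPKM with BcatGOF enteroids (log2 fold change -1.13, SE 0.19, unadjusted p = 3.3e-04, adjusted p = 1, limma). Shmt2, which splits serine in mitochondria, stood at -0.85 (SE 0.17) and Gpt2, an alanine aminotransferase, at -0.95 (SE 0.20). Asns, asparagine synthetase and the most abundant of the 13, was at 92.8, 81.7 and 87.7 against 43.5 and 53.3 FPKM.

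Against cells grown alone, 5 of the 13 were higher without overlap in wild-type coculture (6.35% of all genes) and 0 lower (5.61%). The smallest p-values were those of Mthfd2 (0.77, SE 0.17), Gpt2 (0.67, SE 0.18) and Asns (0.57, SE 0.17) on the log2 scale. In BcatGOF coculture 4 were lower (7.82% of all genes) and 1 was higher (8.49%). Phgdh and Psat1, enzymes of serine synthesis, were among the lower ones, Psat1 at -1.22 (SE 0.38) and Phgdh at -1.57 (SE 0.40). In BcatGOF replicates 1 and 2 Psat1 was at 28.9 and 11.9 FPKM and Phgdh at 30.2 and 9.71 FPKM. Mthfd1l, another mitochondrial folate enzyme, was the higher one, at 0.97 (SE 0.29).

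Of 20 tested genes of the integrated stress response, 7 were lower without overlap in BcatGOF than in wild-type coculture (7.64% of all genes) and 1 was higher (6.36%), with a median of -0.13. Chac1, which degrades glutathione and is a known ATF4 target, was at 11.6, 9.85 and 11.2 against 3.03 and 5.29 FPKM (log2 fold change -1.24, SE 0.27, unadjusted p = 0.00207, adjusted p = 1, limma). Atf5, a transcription factor related to ATF4, was at 260, 294 and 355 against 154 and 114 FPKM, and Sesn2, a leucine sensor, stood at -0.44 (SE 0.18) on the log2 scale. The most abundant of the 20 was Nupr1, with a log2 fold change of -0.10 (SE 0.46), followed by Cebpb, at -0.23 (SE 0.54). Against cells grown alone 2 were higher (8.49% of all genes) and 2 lower (7.82%) without overlap in BcatGOF coculture, among them Vldlr at 0.62 and Atf5 at -0.97. In wild-type coculture 1 was higher (6.35%), Chac1 at 0.62, and 2 were lower (5.61%), among them Atf3 at -0.73. Counts of 1 or 2 in 20 are near the shares over all genes.

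Of 14 tested genes of glutathione synthesis and NRF2 response, the group to which Slc7a11 is also linked, 4 were higher without overlap in BcatGOF than in wild-type coculture (6.36% of all genes) and 1 was lower (7.64%), with a median of 0.29. Hmox1, which breaks down heme, was at 134, 169 and 75.7 FPKM with wild-type and 226 and 192 FPKM with BcatGOF enteroids (log2 fold change 0.80, SE 0.33, unadjusted p = 0.0422, adjusted p = 1, limma). Gclc, which makes the first step of glutathione synthesis, was at 17.4, 20.7 and 10.5 against 34.4 and 30.4 FPKM (log2 fold change 1.01, SE 0.42, unadjusted p = 0.0447, adjusted p = 1, limma). In cells grown alone Gclc was at 35.5, 30.9 and 13.5 FPKM and overlapped the BcatGOF values.

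Cth, which makes cysteine from cystathionine, was the lower one, at 11.3, 7.24 and 8.95 against 3.80 and 6.91 FPKM, and had the smallest p of the list (log2 fold change -0.70, SE 0.25, unadjusted p = 0.0245, adjusted p = 1, limma). Gpx4, which reduces lipid peroxides and is the most abundant of the 14, overlapped between the cocultures (0.22, SE 0.37). Against cells grown alone 5 members were higher (8.49% of all genes) and 1 lower (7.82%) without overlap in BcatGOF coculture, and 1 higher (6.35%) and 1 lower (5.61%) in wild-type coculture, the latter being Gclm, at -0.40 (SE 0.15).

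Among 21 tested amino acid transporters outside the set, 1 was higher (6.36% of all genes) and 4 were lower (7.64%) without overlap between BcatGOF and wild-type coculture, and the median was -0.10. Against cells grown alone 2 were higher (8.49%) and 0 lower (7.82%) with BcatGOF enteroids, and 1 was higher (6.35%), the taurine importer Slc6a6 at 0.53 (SE 0.20), and 0 lower (5.61%) with wild-type enteroids. The most abundant genes of this list were Slc38a10, whose log2 fold change between the cocultures was -0.10 (SE 0.17), and Slc6a8, at 0.27 (SE 0.28). Slc6a8 is a creatine importer that was counted in the list.

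Of 17 genes of amino acid sensing upstream of mTORC1, 1 was higher (6.36% of all genes) and 2 lower (7.64%) without overlap between the cocultures, with a median of 0.061. Against cells grown alone 2 were higher (8.49%) and 2 lower (7.82%) in BcatGOF coculture, and 0 higher (6.35%) and 1 lower (5.61%), Sesn3 at -1.05 (SE 0.44), in wild-type coculture. Between the cocultures the most abundant, Akt1 and Lamtor1, stood at -0.19 (SE 0.17) and -0.0067 (SE 0.22). No gene of these lists passed an adjusted p of 0.05 in any comparison in limma.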

How the data were processed

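Poly-A RNA of 8 libraries was measured. The authors deposited FPKM values for 24930 genes and a table of their own comparison of BcatGOF coculture with mesenchyme only, which gives a log2 fold change, its standard error and test statistic (score columns), p-values and a mean normalized count (signal) for the genes past a threshold. These columns of the deposited table, including each log2 value, score, p-value and signal, are the authors' own. The submitters' processing notes name kallisto 0.46.1, mm9 as the build and DESeq2 1.40.1, without saying what each did or how the authors computed FPKM. Promoters are from RefSeq on GRCm38.p6, and no coordinates were set against mm9.

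The test took the 12927 genes, 9 members among them, that reached 1 FPKM in 2 or more libraries, and log2(FPKM + 1) was fitted with 3 group means over the 8 libraries in limma 3.58.1 (R 4.3.3, trend and robust, 5 residual degrees of freedom). P-values are two-sided, adjusted by Benjamini-Hochberg over all genes, with a threshold of 0.05. The added 1 understates fold changes of low genes. Figures used matplotlib 3.10.9.

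The members and lists were chosen with earlier results of these data known. All 10 members are named. From the other lists the text names the 2 most abundant genes and up to 3 per direction with the smallest p among those under an unadjusted p of 0.05 without overlap. Genes of like pattern are the 5 nearest in library rank.

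The groups carry common replicate numbers. After removing group means, same-numbered libraries correlated at 0.301 to 0.554 (7 pairs) and differently numbered ones at -0.483 to 0.208 (14 pairs). In groups this small, removing the means ties these ranges to each other, so they are not independent. The numbers were taken as pairs only for the ratios and the replicate block, and p-values of single genes are from limma without the block. Between the cocultures the block changed the unadjusted p in limma from 0.0431 to 0.00744 for Slc1a4 and from 0.144 to 0.0318 for Slc7a1. Against cells grown alone it went from 0.0267 to 0.0672 for Slc7a5 with BcatGOF enteroids. Library names in the labels share a stem within a number, but what a number stands for is not said. Alternatives were other pseudocounts, filters and scalings, the replicate block, fits of 2 groups, other variance settings, sample weights and leaving out libraries.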

Additional observations from a re-analysis of the deposited data

Results flagged for a closer look

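Slc7a3, a cationic amino acid importer, was above cells grown alone in wild-type coculture, while its values in BcatGOF coculture overlapped those of cells grown alone. A gene was flagged if its ratios to same-numbered cells grown alone lay on one side of 1 with wild-type and on the other with BcatGOF enteroids. The ratios of Slc7a3 were 2.27, 1.47 and 2.13 with wild-type enteroids and 0.929 and 0.909 with BcatGOF enteroids. That each group kept to one side of 1 is thus the rule that picked the gene, and no support for a difference. The difference was not tested, the gene being under 1 FPKM in 7 of the 8 libraries.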

How the results depend on the processing

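No transporter was called in any comparison under any of the 19 alternatives, the lowest adjusted p being 0.0755, for Slc1a5 against cells grown alone without BcatGOF replicate 1, a fit in which the lone BcatGOF library is assumed to vary like the other groups. The replicate block called 0 transporters too, and over all genes 2 in place of 1 for wild-type coculture against cells grown alone, with the other 2 counts as without it. Of 27 log2 fold changes, 19 kept their sign in every alternative run. With wild-type coculture against cells grown alone, Slc7a11 turned to -0.012 with a pseudocount of 0.1 and -0.096 with sample weights, Slc1a4 to -0.010 with trimmed-mean scaling, and Slc38a1 to 0.021 with sample weights. With BcatGOF coculture against cells grown alone Slc6a9 turned to 0.075 with sample weights. In the fit lacking both wild-type replicate 3 and BcatGOF replicate 2, Slc1a4 (-0.20) and Slc38a1 (0.10) turned in the first of these comparisons, Slc7a1 (0.14) in the next, and Slc1a5 (0.26) between the cocultures. Leaving out 1 library at a time gave, for wild-type coculture against cells grown alone, ranges of -0.20 to 0.28 for Slc1a4, -0.12 to 0.20 for Slc7a11 and -0.28 to 0.10 for Slc38a1. For BcatGOF coculture against cells grown alone they were -0.54 to 0.13 for Slc6a9 and -0.98 to 0.14 for Slc7a1. Between the cocultures they were -0.85 to 0.16 for Slc1a5, -0.43 to 0.021 for Slc38a1 and -0.048 to 0.076 for Slc38a2. The cause was not tested. The filter at a mean of 5 FPKM left out Slc7a11. Over all genes the calls against cells grown alone were 0 to 9 with wild-type enteroids, and 0 to 198 with BcatGOF enteroids, the 198 without BcatGOF replicate 1. Depth is unknown, which limits Slc7a11 and Slc7a3 most.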
